A study of Homo sapiens with 8 samples.

Results

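The 10 genes described here belong to the control of the G1 restriction point: the D cyclins CCND1, CCND2 and CCND3, their kinases CDK4 and CDK6, the INK4 inhibitors CDKN2A and CDKN2B, the retinoblastoma gene RB1, and the E cyclins CCNE1 and CCNE2. They were found by symbol among the 58302 genes of the deposited count table, and all 10 passed the filter on low counts that left 18973 genes for testing. The set was drawn up around CCND2, which was chosen by its CPM spread within the groups as the most variable abundant gene, so its spread is given as a description. The tumours were xenografts of T24, an established human bladder cancer line, grown in mice from control cells (4 libraries) or from cells with enforced DDR1 expression (4 libraries). DDR1 is a receptor tyrosine kinase that binds collagen. The vector and promoter that drive DDR1, the number of cell clones, the mouse strain and any pooling of animals were not given in the sources used here. Nor was it stated whether the libraries of a group came from separate animals, so the p-values below reflect the spread between libraries, which may be technical.

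D cyclins are the mitogen-driven part of the cell cycle engine. They bind CDK4 or CDK6, and the active kinase phosphorylates the RB protein, which then lets go of E2F transcription factors. Free E2F switches on genes of S phase, cyclin E among them, and cyclin E with CDK2 completes the phosphorylation of RB. The INK4 proteins p16 (from CDKN2A) and p15 (from CDKN2B) bind CDK4 and CDK6 and block them. In bladder cancer, loss of the CDKN2A locus, loss of RB1 and gain of CCND1 or CCNE1 are well known.

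Totals ran from 13716286 to 32271031 expected counts per library, and levels below are counts scaled by TMM to the library total (CPM), with mean ± SD over 4 libraries. For the targeted gene DDR1 the means were 152 ± 42.3 (control) and 435 ± 274 CPM (DDR1). DDR1 replicate 1, at 159 CPM, lay inside the control range of 110 to 210 CPM, so it is written as the library labelled DDR1 replicate 1 below. Of 14 markers of bladder epithelium and carcinoma 10 passed the filter, among them GATA3, PPARG, VIM and the keratins KRT5, KRT7, KRT8, KRT18 and KRT19, of which the lowest value in a library was 109 CPM (KRT19). EPCAM ran from 6.72 CPM in DDR1 replicate 3 to 86.0 CPM in the library labelled DDR1 replicate 1, and KRT19 was the 1 marker with an unadjusted edgeR p under 0.05 (log2 fold change 0.95). Of the uroplakins, which mark differentiated urothelium, UPK1B passed at 0.162 to 1.89 CPM, while UPK1A, UPK2 and UPK3A did not pass, nor did KRT20. All DDR1 titles name lane 8, while controls name lane 7 or no lane, so lane and group cannot be told apart. Fewer cells of a type and less RNA per cell cannot be told apart in such bulk samples.

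None of the 10 genes was called between DDR1 and control libraries, where 0.00% of all genes tested were called (edgeR quasi-likelihood test, Benjamini-Hochberg adjusted p under 0.05 over all genes). The adjusted p was 0.9998 for each member. The differences ran from -0.72 (CCNE1) to 0.48 (CCND2) on the log2 scale, 4 were above 0 and 6 below, and their median was -0.004, beside -0.003 over all genes. One member, CCNE1, had an unadjusted p under 0.05, as had 4.17% of all genes tested (791 genes; 2.24% with the DDR1 group lower). The groups overlapped for all 10 members, whereas 2.40% of all genes tested had groups that did not overlap (1.13% with the DDR1 group lower and 1.27% with it higher). With DESeq2, 0 members were called and 16 genes in all, and limma-voom and limma-trend called 0 genes. In the edgeR test the targeted gene DDR1 was not called either, at a log2 fold change of 1.52. Its edgeR adjusted p was 0.9998 (0.0061 before adjustment) and its exact two-sided permutation p 0.0571. A member that was not called may therefore still differ between the groups.

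**Figure D1:**
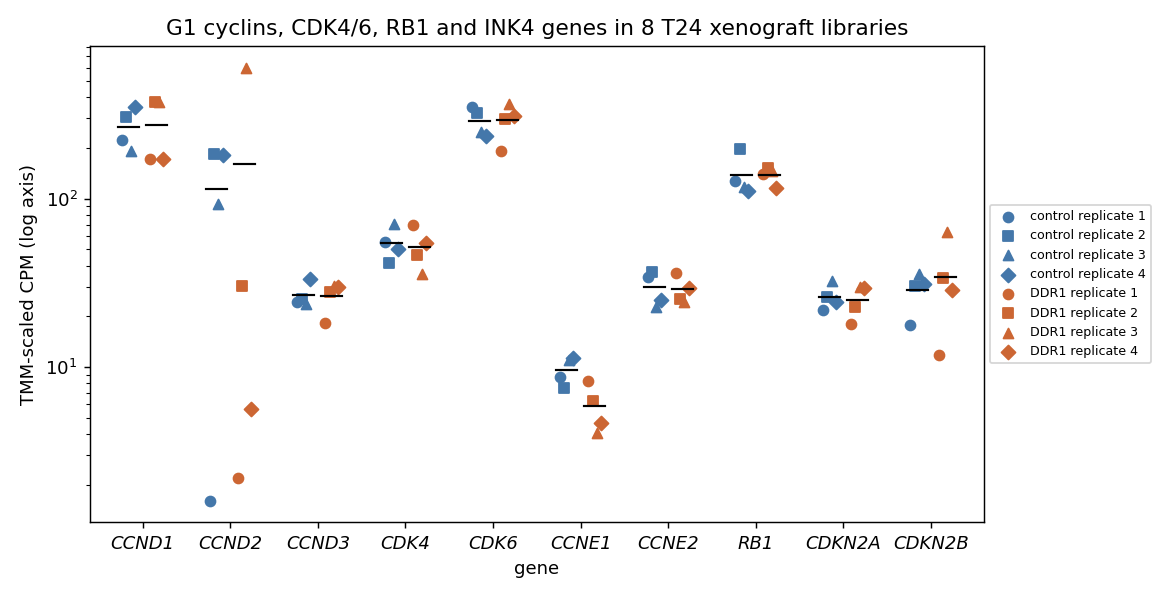
TMM-scaled CPM (log axis) of the 10 genes in 8 libraries, with symbols for the replicates, colours for control and DDR1, and a bar at each group mean. CCND2 runs from 1.61 to 601 CPM, while every other gene stays within a 5.42-fold range.

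Cyclin D1 (CCND1, ENSG00000110092, GRCh38 chromosome 11, 69641087 to 69654474, plus strand), the main D cyclin of most epithelia, was measured at 224, 306, 191 and 349 CPM in control replicates 1 to 4. It was measured at 172, 376, 374 and 171 CPM in DDR1 replicates 1 to 4. The DDR1 group thus held the 2 highest and the 2 lowest values, and all controls lay between them. The log2 fold change was 0.03 (standard error 0.33, exact two-sided permutation p = 0.886).

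Cyclin D2 (CCND2, ENSG00000118971, chromosome 12, 4273772 to 4305350, plus strand), which many tissues use beside or in place of cyclin D1, stood at 1.61, 184, 92.9 and 181 CPM in control replicates 1 to 4. In DDR1 replicates 1 to 4 it stood at 2.18, 30.4, 601 and 5.65 CPM. Each group therefore had libraries in which the transcript was scarce and libraries in which it was abundant. The highest value was 374-fold the lowest, with 14851 and 29 expected counts behind them. The 3 DDR1 libraries whose titles share a prefix (DDR1 replicates 2, 3 and 4) spanned 106-fold, while the pair of controls that share one (control replicates 3 and 4) differed by 1.95-fold. The SD of its log2 CPM within groups was 3.39, beside a median of 0.39 over all genes tested. Among the 1842 genes with a mean of at least 100 CPM this SD ranked 1, which is the property it was chosen for.

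The group means of CCND2 were 115 ± 86.4 and 160 ± 294 CPM, with a log2 fold change of 0.48 (standard error 1.57, exact two-sided permutation p = 0.714). The standard error and p rest on the spread within groups for which CCND2 was chosen, so they are a description. The sign of the difference between groups changed with 1 library. Without DDR1 replicate 3 the log2 fold change was -3.16, at an edgeR adjusted p of 0.864 (0.0451 before adjustment). On the mean of log2 values, limma-voom gave -1.15 and limma-trend -1.10 over all 8 libraries. Summing the libraries whose titles share a prefix gave 0.02, and without control replicate 1 it was 0.08.

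The tested genes around CCND2 varied less than it did. CCND2 was chosen for its spread, so this contrast is a description and says nothing particular of the locus. Of the genes within 500000 bases, 9 were tested, and the SD of their log2 CPM within groups ran from 0.18 to 0.88. Their Pearson correlation with CCND2 over the 8 libraries, a description, ran from -0.45 (NDUFA9) to 0.83 (AC005833.1). TIGAR, which encodes a fructose bisphosphatase induced by p53, starts 2413 bases beyond the end of CCND2 and is its nearest tested gene. It stood at 11.6, 14.03, 12.6 and 11.7 CPM in control replicates 1 to 4, and at 8.97, 9.71, 13.3 and 4.10 CPM in DDR1 replicates 1 to 4. Control replicate 1, with the least CCND2, held about as much TIGAR as control replicate 4. PARP11, the nearest tested gene on the other side at 400324 bases, ran from 9.02 to 18.9 CPM. In DDR1 replicate 4 both TIGAR and DYRK4, a kinase gene at 256854 bases (1.78 to 4.53 CPM in the other libraries), were at their lowest. The antisense gene CCND2-AS1 overlaps CCND2 and held at most 0.167 CPM.

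**Figure D2:**
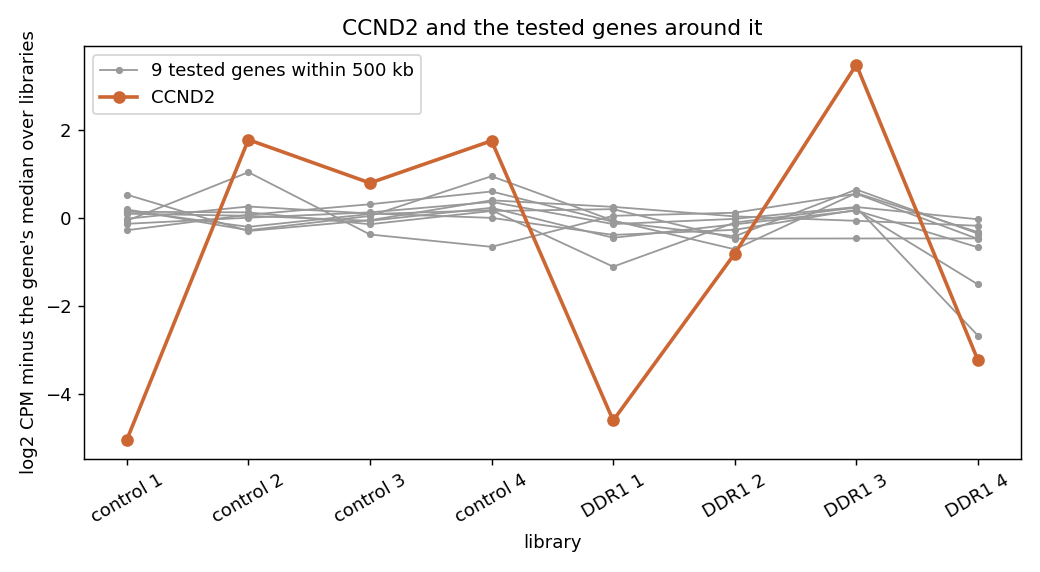
log2 CPM of CCND2 and of the 9 tested genes within 500000 bases of it, each minus its own median over the 8 libraries on the x axis. CCND2 (SD within groups 3.39), which was chosen for its spread, departs in both directions. The SD of its neighbours is at most 0.88.

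Cyclin D3 (CCND3, ENSG00000112576, chromosome 6, 41934933 to 42050357, minus strand), the D cyclin best known from lymphoid cells, varied little. It held 24.1, 25.3, 23.6 and 33.4 CPM in control replicates 1 to 4, and 18.3, 27.7, 30.4 and 29.9 CPM in DDR1 replicates 1 to 4. The library labelled DDR1 replicate 1 was the lowest of all and control replicate 4 the highest. The fold change was below 0.01 in size on the log2 scale (standard error 0.21, exact two-sided permutation p = 0.943).

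Levels of different genes can be set side by side only per length, here as CPM per kilobase of merged exon. On that scale CCND1 made up 46.5% to 91.4% of the summed D cyclin level of a library, CCND2 0.442% to 50.4%, and CCND3 3.14% to 12.4%. The share of CCND2 was 0.442% in control replicate 1, 27.5% in replicate 2, 22.9% in replicate 3 and 24.5% in replicate 4. It was 0.781%, 4.89%, 50.4% and 1.91% in DDR1 replicates 1 to 4. Hence on this scale CCND2 was the leading D cyclin transcript in DDR1 replicate 3, and CCND1 was in the other 7 libraries. In DDR1 replicate 3 CCND2 stood at 84.0 and CCND1 at 77.5 CPM per kilobase. That lead is approximate, since merged exon length covers all annotated transcripts. The summed level of the D cyclins was 76.0 ± 26.2 CPM per kilobase in controls and 83.5 ± 59.7 in the DDR1 group. It was lowest in the library labelled DDR1 replicate 1, at 39.1, and highest in DDR1 replicate 3, at 167.

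**Figure D3:**
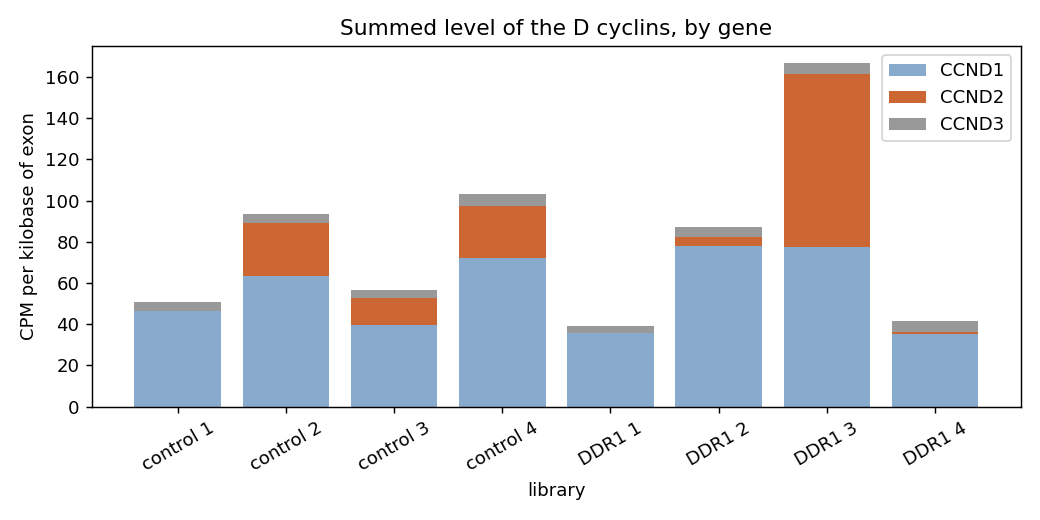
Summed CPM per kilobase of exon of CCND1, CCND2 and CCND3 in each library (stacked bars, linear axis from 0). CCND1 makes up most of the bar in 7 libraries, and CCND2 makes up 50.4% of it in DDR1 replicate 3.

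Neither kinase separated the groups. CDK6 (ENSG00000105810, chromosome 7, 92604921 to 92836594, minus strand) held 351, 323, 250 and 236 CPM in control replicates 1 to 4 and 191, 299, 367 and 311 CPM in DDR1 replicates 1 to 4. The DDR1 range enclosed that of the controls, and the log2 fold change was 0.01 (standard error 0.23, exact two-sided permutation p = 1). CDK4 (ENSG00000135446, chromosome 12, 57747727 to 57756013, minus strand) held 55.3, 41.5, 70.6 and 50.5 CPM in the control replicates and 69.5, 46.3, 35.6 and 54.8 CPM in the DDR1 replicates. Here the groups overlapped as well, at a log2 fold change of -0.08 (standard error 0.24, exact two-sided permutation p = 0.686). CDK4 was lowest in DDR1 replicate 3, the library with the most CCND2 and CDK6. Per length, CDK4 made up 27.3% of the summed kinase level there and 58.4% in the library labelled DDR1 replicate 1.

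CDK4 is a known target of MYC, which binds E-boxes. The 250 bases before its RefSeq start (GRCh38.p14, chr12:57752311-57752560, minus strand) are shown because they hold 3 E-boxes. Capitals mark matches on either strand to the E-box CACGTG, which lies at -216, -196 and -101 from the start, and to the GC box GGGCGG.
CDK4: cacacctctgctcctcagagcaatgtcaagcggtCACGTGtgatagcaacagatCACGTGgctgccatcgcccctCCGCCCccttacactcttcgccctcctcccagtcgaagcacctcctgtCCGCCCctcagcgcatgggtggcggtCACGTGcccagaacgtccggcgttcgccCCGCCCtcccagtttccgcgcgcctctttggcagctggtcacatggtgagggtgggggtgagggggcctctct
An E-box was found in 6.3% and a GC box in 42.6% of the 35116 windows of this length. The same search also looked for E2F sites (TTTCCCGC, TTTCGCGC, TTTGCCGC or TTTGGCGC, in 2.8% of windows) and AP-1 sites (TGANTCA, 6.6%). No matches overlapped one another in the windows of the members. RefSeq promoter entries were matched for 7 of the 10 members; CCND1, CCND2 and CCNE2 had none. A match describes letters only.

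The INK4 genes lie side by side on chromosome 9. CDKN2A (ENSG00000147889, 21967753 to 21995301, minus strand) encodes p16 and, from another start and reading frame, ARF, which protects p53; the gene-level counts add both. CDKN2A reads were counted in every library, at 21.8, 25.9, 32.5 and 24.2 CPM in the control replicates and 17.9, 22.6, 29.9 and 29.3 CPM in the DDR1 replicates. Most of both ranges was shared, and the log2 fold change was -0.07 (standard error 0.21, exact two-sided permutation p = 0.714). CDKN2B (ENSG00000147883, 22002903 to 22009363, minus strand), the p15 gene that TGF-beta is known to induce, varied more. It held 17.7, 30.1, 35.7 and 31.0 CPM in the control replicates and 11.7, 33.6, 63.6 and 28.8 CPM in the DDR1 replicates. DDR1 replicate 3 was the highest and the library labelled DDR1 replicate 1 the lowest, so the DDR1 group enclosed the controls. The log2 fold change was 0.27 (standard error 0.44, exact two-sided permutation p = 0.914), and -0.20 without DDR1 replicate 3.

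The 3 starts of this locus are shown because 1 gene-level value covers both starts of CDKN2A. Each sequence gives the 250 bases before a RefSeq start (GRCh38.p14, minus strand), at chr9:21995325-21995574 for the start farther upstream of CDKN2A, chr9:21974858-21975107 for the one farther downstream and chr9:22009306-22009555 for CDKN2B. Capitals mark GC boxes.
CDKN2A upstream start: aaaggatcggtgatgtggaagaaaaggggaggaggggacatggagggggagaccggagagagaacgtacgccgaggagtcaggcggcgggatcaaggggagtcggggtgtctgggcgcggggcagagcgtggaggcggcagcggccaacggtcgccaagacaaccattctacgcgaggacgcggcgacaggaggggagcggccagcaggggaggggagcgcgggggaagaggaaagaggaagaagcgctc
CDKN2A downstream start: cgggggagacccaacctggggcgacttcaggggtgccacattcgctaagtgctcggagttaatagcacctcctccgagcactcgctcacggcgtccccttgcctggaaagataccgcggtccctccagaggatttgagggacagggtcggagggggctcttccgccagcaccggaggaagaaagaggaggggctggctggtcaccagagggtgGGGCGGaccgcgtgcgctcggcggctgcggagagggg
CDKN2B: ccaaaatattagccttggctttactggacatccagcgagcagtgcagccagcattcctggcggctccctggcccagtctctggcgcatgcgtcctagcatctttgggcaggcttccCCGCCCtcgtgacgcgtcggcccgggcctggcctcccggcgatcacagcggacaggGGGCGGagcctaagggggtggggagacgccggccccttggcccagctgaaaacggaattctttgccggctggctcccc
None of the 3 windows held the E2F, E-box or AP-1 letters, and the upstream start of CDKN2A also lacked the GC box.

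MTAP, a gene of methionine salvage that is often deleted together with CDKN2A, lies 30102 bases from it and was read beside the INK4 genes. It stood at 105, 112, 197 and 158 CPM in control replicates 1 to 4 and at 90.8, 132, 281 and 103 CPM in DDR1 replicates 1 to 4. As with CDKN2B, DDR1 replicate 3 was the highest and the library labelled DDR1 replicate 1 the lowest. The antisense gene CDKN2B-AS1, which overlaps both INK4 genes, held 2.55 to 5.58 CPM. Where exons of these genes overlap, reads cannot be told apart without strand, which the protocols do not mention. Tested genes also overlap CCND1 (LTO1), CDK4 (TSPAN31 and MARCH9), CCNE2 (NDUFAF6 and INTS8) and RB1 (RCBTB2 and LPAR6 among them), so a like limit may hold there.

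RB1 (ENSG00000139687, chromosome 13, 48303726 to 48599436, plus strand), the brake on which these kinases act, held 127, 198, 118 and 112 CPM in the control replicates and 141, 151, 146 and 116 CPM in the DDR1 replicates. Control replicate 2 stood above the other libraries, which lay close together. Between groups it differed by under 0.01 on the log2 scale (standard error 0.21, exact two-sided permutation p = 0.971). It was 0.22 without control replicate 2. Its spread within groups, 0.29 as SD of log2 CPM, was larger than that of 30.7% of all genes tested.

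Cyclin E1 (CCNE1, ENSG00000105173, chromosome 19, 29811898 to 29824308, plus strand), the CDK2 partner that drives entry to S phase, had the smallest p of the members. It held 8.70, 7.48, 10.9 and 11.3 CPM in control replicates 1 to 4 and 8.31, 6.30, 4.05 and 4.65 CPM in DDR1 replicates 1 to 4. All controls lay above DDR1 replicates 2, 3 and 4, whose titles share a prefix. The library labelled DDR1 replicate 1, which has another prefix, lay among the controls. Control replicates 3 and 4, which share a prefix, were the highest. No prefix occurs in both groups, so prefix and group cannot be told apart. The means were 9.60 ± 1.82 and 5.82 ± 1.91 CPM, and the log2 fold change was -0.72 (standard error 0.28). The unadjusted edgeR p was 0.0297, the adjusted p 0.9998 and the exact two-sided permutation p 0.0571, where 0.0286 is the smallest that 70 orderings allow. The sign held in all 18 alternative fits, and the unadjusted p of the fit was under 0.05 in 12 of them. Without the library labelled DDR1 replicate 1 the log2 fold change was -0.94 (edgeR adjusted p = 0.937). Without the pair of controls that name no lane it was -0.47, and -0.42 after summing the libraries whose titles share a prefix, both with an unadjusted edgeR p above 0.05.

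Beside this, 2 lists were read as possible signs of RNA quality. Whether they follow it in these libraries was not tested. The summed level of 13 ribosomal protein genes was 6192 to 7465 CPM in control replicates and 8126 to 11338 CPM in DDR1 replicates. All 13 had a log2 fold change above 0, as had 9383 of the 18973 genes tested. Of the 13, 8 had an unadjusted edgeR p under 0.05, beside 4.17% of all genes tested, and 0 were called. The 9 mitochondrially encoded genes also lay above 0, but their sums overlapped, at 9534 to 20360 CPM in the control replicates and 14127 to 19011 CPM in the DDR1 replicates. The part of RNA quality in the CCNE1 difference, or in those of the other members, was not tested. The 7 tested genes within 500000 bases of CCNE1 had 0 unadjusted p-values under 0.05. They include URI1, a prefoldin-like gene that is often gained together with CCNE1 (log2 fold change 0.05), and POP4, a subunit of RNase P and MRP (0.01).

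The 250 bases before the RefSeq start of CCNE1 (GRCh38.p14, chr19:29811741-29811990, plus strand) are shown because it is the member with the smallest p. Capitals mark 7 GC boxes.
CCNE1: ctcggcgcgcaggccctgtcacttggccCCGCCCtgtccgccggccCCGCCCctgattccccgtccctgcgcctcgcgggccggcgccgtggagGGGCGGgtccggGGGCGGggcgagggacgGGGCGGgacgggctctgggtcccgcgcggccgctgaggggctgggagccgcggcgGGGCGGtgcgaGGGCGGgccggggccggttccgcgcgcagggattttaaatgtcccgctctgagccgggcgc
The E2F, E-box and AP-1 letters were not found in this window.

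Cyclin E2 (CCNE2, ENSG00000175305, chromosome 8, minus strand), the close relative of cyclin E1, was the more abundant of the pair per length in all 8 libraries. It held 34.5, 36.8, 22.7 and 24.9 CPM in the control replicates and 36.1, 25.4, 24.5 and 29.7 CPM in the DDR1 replicates. The DDR1 values lay inside the control range, and the log2 fold change was -0.04 (standard error 0.21, exact two-sided permutation p = 0.914). Per length, CCNE1 made up 36.4% ± 9.68 of the summed E cyclin level in controls and 25.5% ± 4.35 in the DDR1 group. The difference between the changes of CCNE1 and CCNE2 was not tested.

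**Figure D4:**
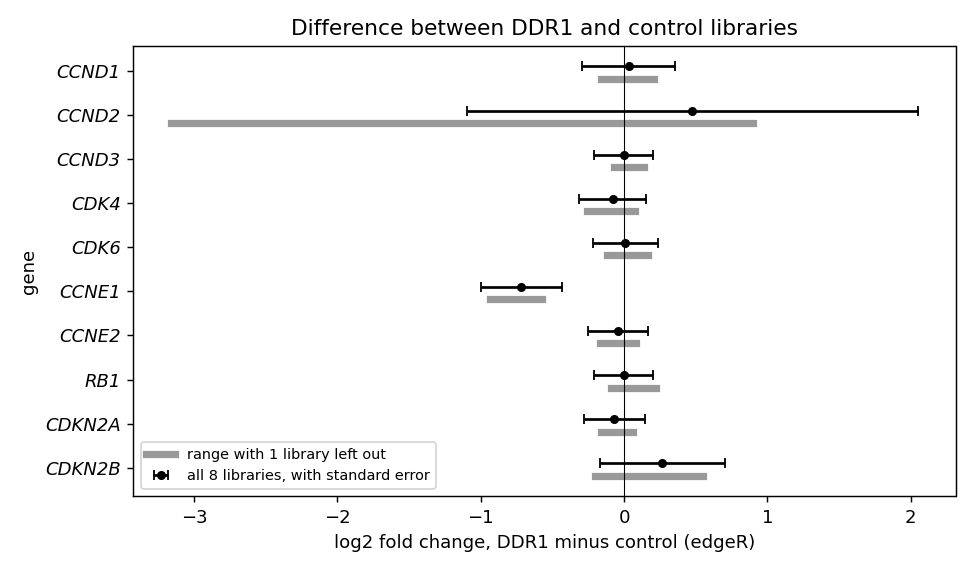
log2 fold change of each member (DDR1 minus control, edgeR) with its standard error (black) and the range when each of the 8 libraries is left out in turn (grey). CCNE1 stays below 0 throughout (-0.94 to -0.57), while the ranges of the other genes include 0, with CCND2 from -3.16 to 0.90.

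Across the 8 libraries the order of the members per length was led by CCND1, with a geometric mean of 53.2 CPM per kilobase, above CDK6 in all 8. CDK6 (23.3), RB1 (21.1) and CDK4 (16.3) followed, and each step between them was smaller than the SD of the difference over libraries. CDKN2B (6.999), CCNE2 (6.56) and CDKN2A (5.80) formed a lower set whose steps were also within that SD. CCND3 stood at 4.52, CCND2 at 4.48 and CCNE1 at 2.85, and CCND2 crossed this whole order, from 0.224 to 84.0 CPM per kilobase. Merged exon length covers all annotated transcripts, so these values are approximate.

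Of the 45 pairs of members, 5 had an exact two-sided permutation p under 0.05 for Pearson's r of log2 CPM over 8 libraries, and 0 passed when adjusted over the 45 pairs. CCND2 and CDKN2B had r = 0.85 (exact permutation p = 0.00248, adjusted p = 0.112) and Spearman's rho = 0.76 (exact permutation p = 0.0368, adjusted p = 0.520). Without the 2 libraries farthest from the median of CCND2, r was 0.64. CCND1 and CDK4 had r = -0.82 (exact permutation p = 0.0145, adjusted p = 0.275) and rho = -0.71 (exact permutation p = 0.0576, adjusted p = 0.520), with r = -0.83 without the 2 farthest libraries. CDKN2A and CDKN2B had r = 0.80 (exact permutation p = 0.0183, adjusted p = 0.275) and rho = 0.74 (exact permutation p = 0.0458, adjusted p = 0.520), with r = 0.68 without the 2 farthest. CCNE2 and CDKN2B had r = -0.72 (exact permutation p = 0.0307, adjusted p = 0.345). Their rho was -0.81 (exact permutation p = 0.0218, adjusted p = 0.520), and r without the 2 farthest -0.76. CCND3 and CDKN2B had r = 0.73 (exact permutation p = 0.0439, adjusted p = 0.347). Their rho was 0.45 (exact permutation p = 0.267, adjusted p = 0.633), and r without the 2 farthest 0.58. Each of these pairs but that of CCND1 and CDK4 holds CDKN2B. Of 11893 other genes with a mean of at least 5 CPM, 1.23% had a correlation with CCND2 at least as large in size as that of CDKN2B. CCND2 was chosen by its spread in these same libraries, so its correlations and their p-values are given as a description. Libraries that share a title prefix may not be independent in these tests.

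The remaining genes of the pathway were described by lists, and 0 genes of any list passed over all genes (edgeR, adjusted p = 0.9998 for each gene named from them). From each list of the pathway the 2 genes of smallest p are named. Of all 18973 genes tested, 9383 had a log2 fold change above 0 and 9590 below. Among the 5 other CDK inhibitors, 3 had a log2 fold change above 0 and 2 below, with a median of 0.03. CDKN1A, the p53-induced inhibitor p21, held 80.5 ± 35.5 (control) and 51.4 ± 21.1 CPM (DDR1), and CDKN1B, the inhibitor p27, held 36.7 ± 5.31 and 40.8 ± 6.79. Of 12 RB relatives, E2F and DP factors, 9 were below 0 and the median was -0.07. E2F6, a repressor, held 16.4 ± 3.71 and 11.3 ± 2.78 CPM, and E2F4, the E2F of resting cells, 66.4 ± 13.7 and 54.0 ± 4.996. Each of these lists thus centred near the median of all genes, -0.003.

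Of 8 genes of CDK2 and its activation, 4 were above and 4 below 0, with a median of -0.05. CDC25A, the phosphatase that activates CDK2, had a log2 fold change of -0.60 (14 ± 3.79 and 9.26 ± 2.36 CPM), and MNAT1, a subunit of the CDK-activating kinase, 0.38. Of 10 genes of G1 cyclin turnover, 7 were above 0 and the median was 0.07. FBXO4, an F-box protein reported to act on cyclin D1, had 0.74 (7.46 ± 2.61 and 12.5 ± 3.70 CPM), and the cullin partner RBX1 0.37. Of 16 factors that act on D cyclin promoters, 11 were above 0, the median was 0.10, and 2 had an unadjusted edgeR p under 0.05. These were NFKB1, an NF-kB subunit (log2 fold change -0.46), and FOS, a part of AP-1 (0.95). Of 10 DREAM subunits and RB corepressors, 7 were above 0 with a median of 0.05, and ARID4A, which binds RB, had 0.70 (27.0 ± 6.34 and 43.7 ± 3.94 CPM, unadjusted edgeR p under 0.05). The histone-binding protein RBBP4 had 0.21.

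Downstream of RB, 16 of 21 E2F target genes of S phase entry and 10 of 14 mitosis genes were below 0. Their medians were -0.07 and -0.10, and 9590 of all 18973 genes tested were below 0. RRM2, a subunit of ribonucleotide reductase, was the 1 E2F target with an unadjusted edgeR p under 0.05 (155 ± 23.6 and 112 ± 19.6 CPM, log2 fold change -0.46), and POLA1, the catalytic subunit of DNA polymerase alpha, had -0.24. Among mitosis genes, the kinesin CENPE had -0.26 and the proliferation marker MKI67 -0.21. Others went the other way: 5 E2F targets were above 0, at up to 0.26, and 4 mitosis genes, at up to 0.16. By library, the E2F targets summed to 1543, 1536, 1469 and 1467 CPM in control replicates 1 to 4 and to 1792, 1308, 951 and 1584 CPM in DDR1 replicates 1 to 4. The controls lay close together, and the DDR1 group held both the highest and the lowest sum. The lowest was in DDR1 replicate 3, which had the most CCND2, and the highest in the library labelled DDR1 replicate 1, which had 2.18 CPM of it. The mitosis genes summed to 1862, 2038, 1781 and 1830 CPM in control replicates 1 to 4 and to 2130, 1480, 1273 and 1913 CPM in DDR1 replicates 1 to 4. Their lowest and highest sums lay in the same libraries as those of the E2F targets, but the next highest was in control replicate 2, which had 184 CPM of CCND2.

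**Figure D5:**
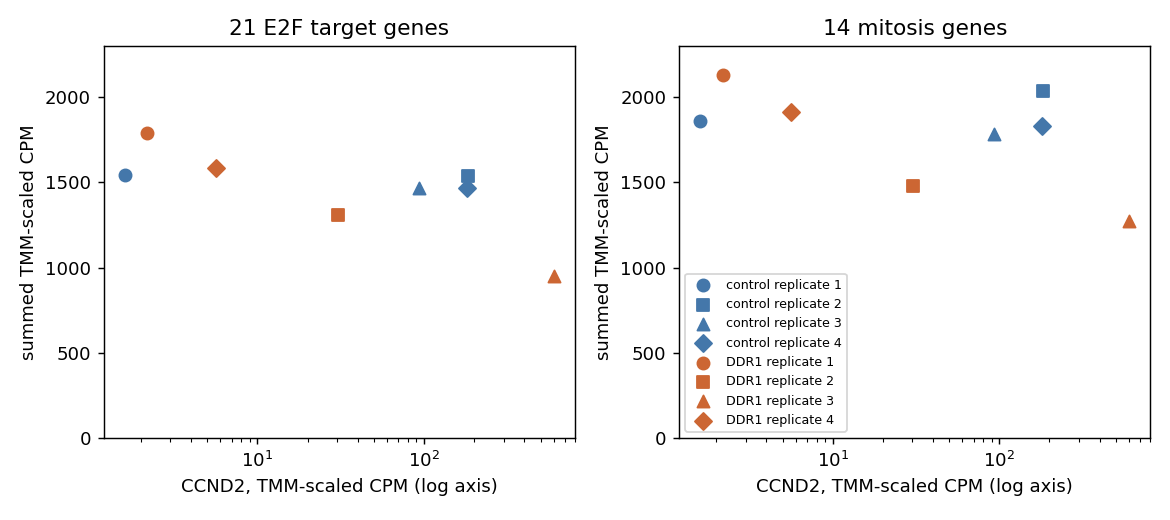
Summed TMM-scaled CPM of 21 E2F target genes (left) and 14 mitosis genes (right) against the CPM of CCND2 (log axis), 1 point a library. DDR1 replicate 3 has the highest CCND2 (601 CPM) and the lowest sums (951 and 1273 CPM), while control replicate 1 with 1.61 CPM of CCND2 lies at 1543 and 1862 CPM.

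Cyclin D2 is also abundant in some cells other than epithelium, so markers of such cells were read beside it. The tumours grew in mice, so cells of the host would be mouse cells. Since any removal of mouse reads is not given, these counts may come from T24 cells or from mouse reads counted as human. Which of these holds was not tested. Of 7 fibroblast markers 4 were tested, and all 7 together ran from 10.03 to 62.8 CPM over the control replicates and from 3.82 to 52.9 CPM over the DDR1 replicates. By CPM not scaled for length, COL1A1 was the highest of them over all 8 libraries (means 13.7 and 8.36 CPM), and COL3A1 was above it in the DDR1 group (8.78 and 11.8 CPM). Of 6 endothelial markers 3 were tested (8.70 to 56.4 and 9.28 to 76.5 CPM, CDH5 the highest). Of 8 markers of macrophages and granulocytes 4 were tested (18.7 to 59.1 and 34.3 to 99.3 CPM, CD68 the highest), and PTPRC, the pan-leukocyte gene, held at most 4 counts in a library. The 7 lymphocyte markers, of which CD3E was the highest, summed to at most 0.877 CPM and none was tested. Of 7 muscle and fat markers 2 were tested (1.25 to 24.3 and 0.890 to 3.80 CPM, MYH2 the highest). No marker of these 5 lists was at 0 in all 8 libraries. By library, the fibroblast list summed to 47.4, 23.4, 10.03 and 62.8 CPM in control replicates 1 to 4. In DDR1 replicates 1 to 4 it summed to 3.82, 52.9, 52.6 and 12.1 CPM. The endothelial list summed to 11.2, 31.5, 8.70 and 56.4 CPM in control replicates 1 to 4. In DDR1 replicates 1 to 4 it summed to 9.28, 46.7, 34.8 and 76.5 CPM. CCND2 was highest in DDR1 replicate 3, at 601 CPM, and lowest in control replicate 1, at 1.61 CPM. The part of other cells in the levels of CCND2 was not tested.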

How the data were processed

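RNA of 8 T24 xenograft tumour libraries, 4 control and 4 DDR1 by the condition label, was selected on poly-T beads and sequenced as paired ends of 150 bases, per the labels' protocols. The submitters' processing notes name STAR 2.7.5, RSEM 1.3.1, Trim Galore 0.6.4, FastQC 0.11.9 and the build GRCh38; the annotation release, and any removal of mouse reads, is not given in the sources used here. The authors deposited expected counts (RSEM's estimated counts per gene), which were rounded to whole numbers, and TMM-normalized log2 values, used in 1 alternative. The 8 files of single libraries repeat the log2 table. Gene identifiers were matched to GENCODE 29 (58039 of 58302).

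Genes were kept by filterByExpr (minimum count 10), scaled by TMM and tested with edgeR 4.0.16 (R 4.3.3) over all 8 libraries without covariates; an adjusted p under 0.05 was called. A prior count of 2 went into log2 CPM. The edgeR fit alone was checked on simulated counts, for its recovery of known log2 fold changes. Alternatives used limma 3.58.1, DESeq2 1.42.0, other scalings and filters, and fewer or summed libraries. Libraries of a group all differed by more than sampling noise (chi-square over degrees of freedom at least 42.0). The members and lists were chosen with earlier results of these data known. Named genes were the members, DDR1, the 2 genes of smallest p in each pathway list, the most abundant marker of each list of other cells, the tested genes nearest to CCND2, and the 5 genes most and 5 least like CCND2; other names (bladder markers, COL3A1, MTAP, DYRK4 and other neighbours) were chosen after their values were seen.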

Additional observations from a re-analysis of the deposited data

Results flagged for a closer look

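CCND2 in DDR1 replicate 3 was at 601 CPM and the next DDR1 library at 30.4 CPM, a gap of 0.953 of the range of the group; since CCND2 was chosen for its spread within groups, this is a description. Among the groups of the other 9 genes, 1 library stood far from the rest: CCND3 in control replicate 4 was at 33.4 CPM and the next control at 25.3 CPM, a gap that only just passed the limit used. Chance gives about 1 such case in 20 groups.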

How the results depend on the processing

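Over 18 alternative fits, 0 members were called, and over all genes 0 were called in all but 1 of them; DESeq2 called 16. CCNE1 was the 1 member whose sign held in all 18. The other signs changed as follows, in log2 fold change, and the cause was not tested. With RLE size factors CCND3 had 0.0032, and with DESeq2 0.0036. With limma-voom CCND1 had -0.038, CCND2 -1.15, CDK6 -0.0061 and RB1 0.028, and with limma-trend CCND1 had -0.024, CCND2 -1.10 and RB1 0.040. With no low count filter CCND3 had 0.022 and RB1 0.018. Without the 2 controls that name a lane CCNE2 had 0.31 and RB1 0.30, and without the 2 that name none CCND3 had 0.10, CDK4 0.094, CDK6 -0.21 and CDKN2A 0.064. When libraries sharing a prefix in the title were summed, CCND1 had -0.067, CDK4 0.12, CDK6 -0.25 and CDKN2B -0.013.

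Leaving out each library in turn gave log2 fold changes of -0.16 to 0.21 for CCND1, -3.16 to 0.90 for CCND2, -0.071 to 0.14 for CCND3, -0.26 to 0.073 for CDK4, -0.12 to 0.17 for CDK6, -0.94 to -0.57 for CCNE1, -0.16 to 0.081 for CCNE2, -0.093 to 0.22 for RB1, -0.16 to 0.062 for CDKN2A and -0.20 to 0.55 for CDKN2B, with 0 to 0 genes called. All 40 CPM means under other scalings moved by less than 1 SD, and another scaling moved the median of all genes by at most 0.0064. No paired analysis was possible because the labels name no replicate numbers, and of the numbers after an M in the titles, whose meaning is not stated, the groups share only 1, which 3 controls and 1 DDR1 library carry.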

Other observations

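The genes whose log2 CPM ran most alike to that of CCND2 were taken from 11893 genes with a mean of at least 5 CPM, as a description over 8 libraries that share title prefixes and differ in depth. The 5 most alike were NUTM2B-AS1 (Pearson's r = 0.98), LYN (0.96), ANKRD20A11P (0.95), ATF7IP (0.94) and FAM189A2 (0.93). LYN, a kinase of the SRC family, stood at 11.5, 24.2, 31.8 and 28.6 CPM in control replicates 1 to 4 and at 13.0, 20.8, 41.0 and 13.2 CPM in DDR1 replicates 1 to 4. It was thus low in the 3 libraries with the least CCND2 and highest in DDR1 replicate 3. ATF7IP, a cofactor of histone methylation, ran over a narrower range, from 136 CPM in control replicate 1 to 233 CPM in DDR1 replicate 3.

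The 5 genes that ran most opposite were FLVCR1 (r = -0.96), ITPA (-0.96), RPS6KA1 (-0.96), NHP2 (-0.96) and C1orf43 (-0.95). RPS6KA1, a kinase downstream of ERK, stood at 57.8, 40.0, 44.7 and 35.6 CPM in control replicates 1 to 4 and at 59.5, 48.1, 30.3 and 55.0 CPM in DDR1 replicates 1 to 4. Its highest values lay in the 3 libraries with the least CCND2, and its lowest in DDR1 replicate 3.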
